A study of Mus musculus with 8 samples.

Results

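The mitotic machinery genes described here are those of the deposited table whose symbols name kinesins, dynein subunits, centromere and kinetochore proteins, spindle checkpoint proteins, cohesin and condensin subunits, subunits of the anaphase-promoting complex, cyclins and cyclin-dependent kinases (CDKs), and centrosome or spindle proteins. They were selected by symbol alone, without use of any measured value, and 81 of the 3160 genes in the table matched. By role they were 26 centrosome and spindle genes, 16 kinesins, 9 kinetochore and checkpoint genes, 9 cohesin and condensin genes, 8 genes of the anaphase-promoting complex, 6 cyclins, CDKs and mitotic kinases or phosphatases, 4 CDKs of the transcription machinery, and 3 dynein subunits. Smc6, which belongs to neither complex, was counted with cohesin and condensin. The transcription CDKs and several kinesins share a family name with mitotic proteins but work in transcription or in transport along axons and cilia, and are named as such below.

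RNA was sequenced from E14Tg2A, a mouse embryonic stem (ES) cell line of the 129/Ola strain, grown in serum with leukemia inhibitory factor (ES, day 0), and from epiblast-like aggregates (ELA) of the same line, left to float in serum-free medium with N2 and B27 until day 2. Both stages were exposed to cycloheximide before lysis, which holds ribosomes on their mRNA. In each stage an input sample (total RNA of the cleared lysate) was taken beside an Rpl10a-IP sample, the RNA recovered with the endogenous ribosomal protein Rpl10a, so that each stage had 2 input and 2 Rpl10a-IP libraries. The labels number the replicates but do not say that they came from separate cultures, so the p-values measure only spread between libraries of 1 cell line. That spread was pooled over the groups and in part over genes.

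During mitosis, cyclin B and Cdk1 drive entry, kinesins and dynein move along spindle microtubules that grow from the centrosomes, and kinetochores built on the Cenpa nucleosome hold the chromosomes. Cohesin keeps sister chromatids together until the spindle checkpoint is satisfied, while condensin compacts them. The anaphase-promoting complex, a ubiquitin ligase activated by Cdc20, then marks cyclins and the inhibitor of the cohesin-cutting separase for destruction. Mouse ES cells are known for rapid division with short gap phases. Many genes of this kind are transcribed late in the cell cycle through promoters that carry a cell cycle genes homology region (CHR, TTTGAA) and CCAAT boxes.

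The promoter windows of 5 members are shown because they hold both motifs and belong to genes whose ribosome loading moved in different ways (below): Cdk1, Cdc20, Kif4, Ncapg and Cenpa. Each runs 5′ to 3′ on the strand of the gene, from 250 bases before to 50 bases after the RefSeq start (GRCm38.p6), with TTTGAA and CCAAT, in either orientation, in capitals. The windows lie at chr10:69352863-69353162 (minus strand), chr4:118437294-118437593 (minus strand), chrX:100625815-100626114, chr5:45669675-45669974 and chr5:30666636-30666935 (plus strand).
Cdk1: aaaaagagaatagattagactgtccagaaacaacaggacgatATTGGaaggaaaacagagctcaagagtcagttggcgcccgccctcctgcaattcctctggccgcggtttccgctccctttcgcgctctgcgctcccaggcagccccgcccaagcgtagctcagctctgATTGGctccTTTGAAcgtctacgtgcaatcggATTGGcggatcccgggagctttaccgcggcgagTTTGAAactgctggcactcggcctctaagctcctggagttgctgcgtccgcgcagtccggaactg
Cdc20: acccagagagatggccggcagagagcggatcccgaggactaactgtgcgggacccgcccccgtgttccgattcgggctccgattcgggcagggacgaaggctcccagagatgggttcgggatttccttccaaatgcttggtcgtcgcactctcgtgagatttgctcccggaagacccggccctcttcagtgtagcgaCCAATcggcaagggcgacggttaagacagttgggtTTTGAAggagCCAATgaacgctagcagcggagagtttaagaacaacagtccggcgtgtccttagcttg
Kif4: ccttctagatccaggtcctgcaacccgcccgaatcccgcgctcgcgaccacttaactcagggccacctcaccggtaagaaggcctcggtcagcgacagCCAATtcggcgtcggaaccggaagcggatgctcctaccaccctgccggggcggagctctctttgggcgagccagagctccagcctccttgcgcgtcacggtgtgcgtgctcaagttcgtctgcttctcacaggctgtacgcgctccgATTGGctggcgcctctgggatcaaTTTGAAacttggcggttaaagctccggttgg
Ncapg: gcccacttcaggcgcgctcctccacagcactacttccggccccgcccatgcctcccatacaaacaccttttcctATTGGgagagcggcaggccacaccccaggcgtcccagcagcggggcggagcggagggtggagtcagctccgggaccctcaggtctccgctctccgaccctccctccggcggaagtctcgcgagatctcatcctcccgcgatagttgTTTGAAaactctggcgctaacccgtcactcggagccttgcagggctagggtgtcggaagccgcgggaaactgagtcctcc
Cenpa: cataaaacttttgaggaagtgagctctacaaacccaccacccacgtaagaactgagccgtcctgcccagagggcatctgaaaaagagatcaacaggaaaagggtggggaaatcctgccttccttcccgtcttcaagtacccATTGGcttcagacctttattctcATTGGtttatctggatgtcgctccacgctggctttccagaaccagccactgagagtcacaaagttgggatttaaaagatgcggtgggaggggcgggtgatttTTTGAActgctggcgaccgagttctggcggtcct
Windows were found for 64 of the 81 members (73 windows, since some genes have several starts). TTTGAA was present in 30.1% of the member windows, 12.8% of the windows of all genes in the table and 17.9% of all mouse windows of the same length. CCAAT was present in 56.2%, 38.9% and 37.4%, and both motifs in 21.9%, 5.46% and 6.95%. The pair was found in 9 of the 29 members with a window whose ribosome loading rose, 2 of the 10 whose loading fell and 4 of the 25 others. These are counts of letters, not of bound sites, and the motifs searched can share at most 1 base.

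The Rpl10a-IP libraries held 16076207 to 23483388 reads over the genes of the table and the ES input libraries 5380139 and 3898414, while the ELA input libraries held only 159587 and 410192. A member had a median of 30 reads in ELA input replicate 1 and 78 in replicate 2. The lowest were 5 reads for Cep89 and 14 reads for Ccnd3, so the ELA input is the least precise measurement behind every loading value in ELA. The study's methods leave ELA input replicate 1 out, for poor correlation, lower mapping and read quality and more PCR duplicates. Over the filtered genes the chi-square between the 2 ELA input libraries over its degrees of freedom was 0.957, against 6.04 to 27.2 in the other groups. The authors' filter on close replicate ratios lowers this figure, and so does low depth. It therefore cannot show that replicate 1 is sound. The Pearson r of the 2 ELA input libraries was 0.984, the lowest of the groups. Both were kept as separate libraries here. With both summed as 1 the members called were 63 in place of 62 for loading in ELA, 49 in place of 50 for total RNA and 51 in place of 48 for the change in loading. The stage labels were checked on 6 naive pluripotency genes in the table, whose summed normalised counts were 19417.5 and 19867 in ES input against 2284 and 2162 in ELA input, and on Dnmt3b of the primed epiblast, at 3188 and 3063 against 20200.4 and 18169. The neural gene Nes was at 375 and 372 in ES input and at 2229 and 2035 in ELA input. None of the endoderm, mesoderm or fibroblast markers looked for was in the table, and the part of cell mixture in any result was not tested. In bulk samples fewer cells in mitosis and less RNA per cell cannot be told apart.

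Members took a larger share of the reads on ribosomes in ELA than in any other group: 3.27% and 3.35% of the reads in the ELA Rpl10a-IP libraries, 2.42% to 2.43% in ELA input, 2.27% to 2.34% in ES Rpl10a-IP and 2.05% to 2.10% in ES input. Ribosome loading was taken as the normalised count in Rpl10a-IP over that in input, and its change as the ELA ratio over the ES ratio, the interaction term of a limma fit on the log2 scale of normalised count plus 1. A call is an adjusted p under 0.05 by limma with Benjamini-Hochberg adjustment over all 3160 genes. The fit took 1 spread for all groups, whatever their depth. Most of it was drawn from other genes (prior degrees of freedom 30.7 to 155, residual 3 or 4). Standard errors can therefore be too small for genes with few reads in ELA input. All values are relative to the libraries as a whole, so a shift common to all genes cannot be seen. Where a group of genes is set beside all genes below, the counts and medians are descriptions. The authors' filter kept genes with close replicate ratios, which makes adjusted p-values too small. Many values depend on a loess correction of the libraries for length and GC content of the transcripts (the length and GC correction), and corrected values are given beside a number of the results. A value with none beside it is not thereby shown to be stable.

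In ES cells the members lay slightly above the average of all genes. Loading differed from the average in 34 of 81 members, 24 higher and 10 lower (29.6% and 12.3%). Of all genes 39.2% were called (20.5% higher and 18.7% lower). These figures rest on the libraries used: of the 3160 genes 1239 were called, against 734 without ES Rpl10a-IP replicate 1, 785 without its replicate 2 and 762 with 8 libraries, where 25, 28 and 26 members were. The median log2 ratio was 0.10 for members and −0.01 for all genes. The highest values were those of Bub1, the checkpoint kinase, at log2 0.72 (SE 0.09, limma adjusted p = 1.3e-11), of Ncapg, a subunit of condensin I, at 0.67 (SE 0.09), and of Kif18a, a kinesin that dampens chromosome movements, at 0.65 (SE 0.10). Among the lowest were Cep89, which serves the cilium, at −0.53 (SE 0.13), and Anapc5, a scaffold subunit of the anaphase-promoting complex, at −0.50 (SE 0.09). The value of Cep89 missed the threshold without ES Rpl10a-IP replicate 2 (−0.40, adjusted p = 0.091). No member was beyond a 2-fold difference in either direction, and of all 3160 genes 0 were called over 2-fold higher and 5 over 2-fold lower.

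In ELA the log2 loading of members ran from −1.68 to 1.73, against −0.53 to 0.72 in ES. It differed from the average in 62 members, 46 higher and 16 lower, where 74% of all genes were called (36.8% higher and 37.2% lower). Of the 81 members 13 were over 2-fold higher and 5 over 2-fold lower, against 298 and 376 of all 3160 genes. The median log2 ratio was 0.43 for members and −0.01 for all genes. Cep192, which recruits the spindle pole material and its kinases, stood highest at log2 1.73 (SE 0.11), followed by Ncapg at 1.64 (SE 0.11) and the dynein heavy chain Dync1h1 at 1.48 (SE 0.12). Kif3a, a motor of cilium transport, stood lowest at −1.68 (SE 0.13), followed by Cenpa, the centromere histone, at −1.63 (SE 0.13) and Knstrn, a spindle and kinetochore protein, at −1.27 (SE 0.12). With the length and GC correction the highest were Ncapg (1.87), Kif18a (1.52) and Bub1 (1.43), with Cep192 at 1.22, Dync1h1 at 0.68 and Cenpa at −1.08. Of the 27 members called in both stages, 22 were higher in both and 5 lower in both, among them Cenpa, Cep57, Knstrn and Mad1l1, and 0 changed side. As shares of the members these are 27.2% higher in both and 6.17% lower in both, against 14.1% and 13.4% of all genes, of which 3.96% changed side.

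The change between the stages was called for 48 of 81 members, 36 with higher and 12 with lower loading in ELA, where 56.2% of all genes were called (28.4% higher and 27.7% lower). As shares of the members, 44.4% rose and 14.8% fell. The median log2 change was 0.29 for members and 0.01 for all genes. By role, loading rose in 11 of 16 kinesins and fell in 1, rose in 5 of 8 genes of the anaphase-promoting complex and fell in 1, rose in 11 of 26 centrosome and spindle genes and fell in 4, and rose in 3 of 9 cohesin and condensin genes with 0 falls. It rose in 2 of 3 dynein subunits and 2 of 4 transcription CDKs. Of 9 kinetochore and checkpoint genes 2 rose and 4 fell, and of the 6 cyclins, CDKs and mitotic regulators 0 rose and 2 fell. The differences between these role lists were not tested. With the length and GC correction the kinesins gave 6 rises and 3 falls. Kif1a, Kif1b, Kif3b, Kif13a and Kif13b lost their call, and Kif5c (−0.49) and Kif16b (−0.47) became falls. With it the kinetochore and checkpoint genes gave 4 rises and 2 falls, the anaphase-promoting complex 5 and 0, the centrosome and spindle genes 10 and 4 of 25, the transcription CDKs 1 and 0, and the cyclin and CDK class 0 and 3.

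**Figure D1:**
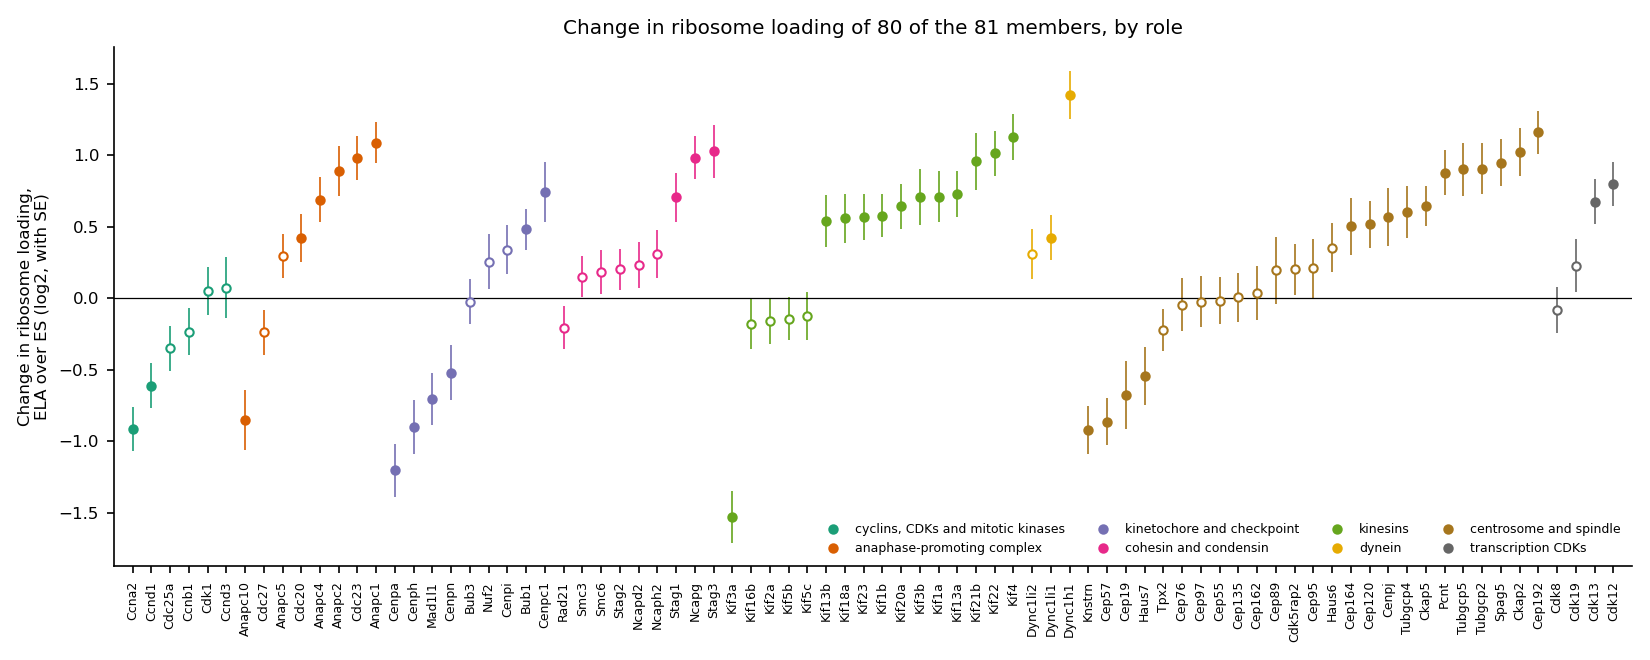
Change in ribosome loading from ES to ELA (log2, vertical axis) for 80 of the 81 members, ordered within role; bars are the standard error of the limma fit, filled points have an adjusted p under 0.05 and open points do not. Most filled points lie above 0 in the kinesins and the anaphase-promoting complex, and the lowest point is Kif3a at −1.53.

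Among the cyclins, CDKs and their phosphatase, Ccna2 and Ccnd1 mRNA was lower on ribosomes in ELA, with no called change in total RNA, and the other 4 members fell in total RNA. Ccna2, the cyclin of S phase and G2, had normalised counts of 2446 and 2372 in ES input and 2365 and 2830 in ELA input, and of 2560 and 2768 in ES Rpl10a-IP against 1481 and 1547 in ELA Rpl10a-IP. Its inputs overlapped and its ribosome-bound levels did not: the ratio was 1.05 and 1.17 in ES and 0.626 and 0.547 in ELA, a log2 change in loading of −0.92 (SE 0.15, limma adjusted p = 6.25e-06). Its total RNA was a called rise of 0.24 with the length and GC correction. Ccnd1, the cyclin of the G1 restriction step, had ratios of 1.06 and 0.997 in ES and of 0.633 and 0.718 in ELA, a change of −0.61 (SE 0.16, adjusted p = 0.00147). Both share exonic bases with a gene on the opposite strand, Exosc9 for 14.6% of Ccna2 and Oraov1 for 21.3% of Ccnd1.

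For the rest of this class loading was not called as changed. Ccnb1, which with Cdk1 forms the kinase of mitotic entry, had 3719 and 4213 normalised counts in ES input and 2637 and 3403 in ELA input, a total RNA change of log2 −0.40 (SE 0.11, adjusted p = 0.00221). Without ELA input replicate 1 it was −0.21, and without ES input replicate 2 −0.31, and neither passed the threshold (adjusted p = 0.0725 and 0.0776). Cdk1 had 1056 and 963 in ES input and 625 and 774 in ELA input, a change of −0.54 (SE 0.12, adjusted p = 0.000162) that was −0.34 with the length and GC correction. Ccnd3, another D-type cyclin, went from 510 and 430 to 218 and 148, a change of −1.38 (SE 0.15), the largest fall of total RNA in this class. Cdc25a, the phosphatase that activates CDKs, had a total RNA change of −0.27 (SE 0.11, adjusted p = 0.0322) and a change in loading of −0.35 (SE 0.16) that missed the threshold (adjusted p = 0.055). With the correction the first was not called (−0.19) and the second was (−0.56). Genomic copies of part of the transcript were found for Ccnb1 (74.6% of it at 97.6% identity) and Ccnd3 (86.7% at 95.5%), so their counts are less certain. Ccnd3 also shares 15.7% of its exonic bases with Bysl on the opposite strand. In ribosome-bound RNA all 6 were called lower in ELA, from log2 −0.47 for Cdk1 to −1.29 for Ccnd3. With the correction 5 of 6 were, Cdk1 at −0.18 missing the threshold (adjusted p = 0.0516) and Ccnb1 moving from −0.62 to −0.18.

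In the anaphase-promoting complex, loading rose for Anapc1, Cdc23, Anapc2, Anapc4 and Cdc20 and fell for Anapc10. Anapc1, the largest scaffold subunit, had 2176 and 2332 normalised counts in ES input, 2855 and 2618 in ELA input, 2790 and 2859 in ES Rpl10a-IP and 7112 and 7462 in ELA Rpl10a-IP. Neither fraction overlapped between the stages, with a total RNA rise of 0.28 (SE 0.10, adjusted p = 0.0157) and a ribosome-bound rise of 1.38 (SE 0.09). The ratio went from 1.25 ± 0.0397 in ES to 2.67 ± 0.254 in ELA (SD, n = 2), a log2 change of 1.09 (SE 0.145, adjusted p = 1.43e-07). With the correction the loading change was 0.56 and the ribosome-bound rise 0.60, both still called, and total RNA was not called (0.044). Cdc23, a subunit that helps bind substrates, had ratios of 1.23 and 1.37 in ES and 2.62 and 2.51 in ELA, a change of 0.98 (SE 0.15, adjusted p = 2.29e-06). Anapc2, the cullin subunit that carries the catalytic module, rose by 0.89 (SE 0.17), Anapc4 by 0.69 (SE 0.16) and Cdc20 by 0.42 (SE 0.17, adjusted p = 0.0338). The ratios of Cdc20 were 1.18 and 1.39 in ES and 1.96 and 1.5 in ELA. Its call was lost without either ES input library, ES Rpl10a-IP replicate 1 or ELA Rpl10a-IP replicate 1, with changes of 0.40, 0.44, 0.32 and 0.24, and with total reads as scaling, at 0.33 (adjusted p = 0.102). Anapc10, which helps recruit substrates, was the exception: its ratio fell from 1 and 1.21 to 0.551 and 0.674, a change of −0.85 (SE 0.21, adjusted p = 0.000857), on only 7 and 19 reads in the ELA input, and it was not called with the length and GC correction. Cdc27, at −0.24 (SE 0.16), and Anapc5, at 0.29 (SE 0.15), were not called. A genomic copy of part of the transcript at 90% identity or more was found for Anapc5, Anapc10 and Cdc20, which makes their counts less certain. Cdc23 shares 13.3% of its exonic bases with Kif20a on the opposite strand.

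Kinetochore and checkpoint genes split. The centromere histone gene Cenpa was called lower on ribosomes (−0.77) and higher in total RNA (0.42). With the length and GC correction the first was 0.20 and not called and the second 0.91. Its normalised counts were 420 and 422 in ES input, 598 and 530 in ELA input, 307 and 320 in ES Rpl10a-IP and 197 and 167 in ELA Rpl10a-IP. The ratio fell from 0.731 and 0.76 to 0.33 and 0.315, a log2 change of −1.21 (SE 0.18, adjusted p = 1.42e-06). Neither stage overlapped the other in any of these measures. The inner kinetochore genes Cenph, at −0.90 (SE 0.19), and Cenpn, at −0.52 (SE 0.19), and Mad1l1, which brings the checkpoint signal to kinetochores, at −0.71 (SE 0.18), fell in loading too. With the length and GC correction Cenph and Cenpn were both at −0.20 and not called, Cenpa was at −0.71 and Mad1l1 at −0.69. It raised Bub1 to 0.83 and Cenpc1 to 1.15. Bub1 rose by 0.48 (SE 0.15, adjusted p = 0.00575), with ratios of 1.71 and 1.57 in ES and 2.21 and 2.36 in ELA, and missed the threshold without ES Rpl10a-IP replicate 2 (0.43, adjusted p = 0.0513). Cenpc1, the scaffold of the inner kinetochore, rose by 0.74 (SE 0.21, adjusted p = 0.00313), with a genomic copy of 88.7% of its transcript at 93.2% identity, and missed it without ES input replicate 1 (0.65, adjusted p = 0.0564). Bub3, the partner of Bub1, and Nuf2, of the microtubule-binding Ndc80 complex, were not called, at −0.03 (SE 0.16) and 0.26 (SE 0.19), though Nuf2 was a called rise of 0.70 with that correction.

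Cohesin and condensin genes rose in loading or were not called. Ncapg had inputs of 1236 and 1329 normalised counts in ES and 1359 and 1357 in ELA, not called as different but a called fall of −0.22 with the length and GC correction, while its ribosome-bound level went from 1999 and 2041 to 4032 and 4433. Its loading change was log2 0.98 (SE 0.15, adjusted p = 1.42e-06), and it overlaps Lcorl on the opposite strand. Stag1, a cohesin subunit, rose by 0.70 (SE 0.17, adjusted p = 0.000637), from ratios of 1.19 and 1.17 to 2.13 and 1.73. Stag3, the meiotic version of that subunit, rose by 1.03 (SE 0.19) as its total RNA fell by 1.25 on the log2 scale. Its ribosome-bound change of −0.21 was not called, or was a called fall of −0.41 with the length and GC correction. Its inputs went from 357 and 388 to 163 and 148, on 6 and 14 reads in ELA. The core cohesin genes Rad21 (−0.21, SE 0.15) and Smc3 (0.15, SE 0.14) and the condensin gene Ncapd2 (0.23, SE 0.16) were not called. Stag2, the usual partner of cohesin in dividing cells, rose instead in total RNA, from 2299 and 2484 to 5601 and 5109, a log2 change of 1.16 (SE 0.10, adjusted p = 2.81e-12), with a loading change of 0.20 (SE 0.14). The total RNA rise was 0.48 with the length and GC correction.

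Of the kinesins that act in the spindle or in cytokinesis, grouped here after their values were seen, Kif4, Kif18a, Kif20a, Kif22 and Kif23 rose in loading. Kif2a, which depolymerises microtubules at spindle poles, was not called, at −0.16 (SE 0.16), and its total RNA change was 0.29 (SE 0.11), a call that turned to a called fall of −0.27 with the length and GC correction. Kif4, the chromokinesin of the central spindle, had 1051 and 922 normalised counts in ES input and 1060 and 975 in ELA input, and 1213 and 1150 in ES Rpl10a-IP against 2496 and 2844 in ELA Rpl10a-IP, a log2 loading change of 1.13 (SE 0.16, adjusted p = 4.1e-07). Kif22, which pushes chromosome arms from the poles, had ratios of 0.798 and 0.92 in ES and of 1.71 and 1.75 in ELA, a change of 1.01 (SE 0.16). Kif20a and Kif23, both of cytokinesis, rose by 0.64 (SE 0.16) and 0.57 (SE 0.16), and Kif18a by 0.56 (SE 0.17), or 1.04 with the correction. Kif2a, Kif4 and Kif20a share 17.4%, 15.1% and 32.3% of their exonic bases with a gene on the opposite strand (Dimt1, Pdzd11 and Cdc23). As the strand setting of the counting is not given in the sources used here, reads of these pairs cannot be told apart.

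The 5 largest rises in total RNA among the members were those of the kinesins Kif1a, Kif3a, Kif5c, Kif21b and Kif1b. The transport kinesins Kif13a, Kif13b and Kif16b had no called change in total RNA, at 0.22, −0.13 and 0.07, though Kif13b was a called fall of −0.38 with the length and GC correction and the others were at −0.063 and −0.14, not called. Kif1a, a motor of synaptic vesicle precursors in neurons, went from 233 and 199 normalised counts in ES input to 2121 and 1654 in ELA input, a log2 change of 3.11 (SE 0.12), and rose further on ribosomes, from 211 and 203 to 3035 and 2848, a change of 3.84 (SE 0.10). Kif21b rose by 1.64 (SE 0.14) in total and 2.61 (SE 0.13) in ribosome-bound RNA, and Kif1b, a mitochondrial and vesicle motor, by 1.29 (SE 0.10) and 1.88 (SE 0.09). Kif5c, a conventional kinesin of neurons, rose by 1.77 (SE 0.12) and 1.66 (SE 0.10), with no call in loading. The length and GC correction lowered these rises to 1.06 and 1.55 for Kif21b, to 0.97 in ribosome-bound RNA for Kif1b and to 1.05 in ribosome-bound RNA for Kif5c, all still called.

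Kif3a stood apart from the other kinesins. Its normalised counts were 381 and 288 in ES input and 1577 and 1834 in ELA input, a rise of log2 2.36 (SE 0.13), but only 307 and 289 in ES Rpl10a-IP and 527 and 532 in ELA Rpl10a-IP, a rise of 0.84 (SE 0.10) that was 0.52 with the length and GC correction. Its ratio went from 0.805 and 1.01 to 0.334 and 0.29, the lowest mean ratio in ELA among the members, and its loading changed by −1.53 (SE 0.18, adjusted p = 1.91e-08). Kif3b, its partner in the same heterotrimeric motor, moved the opposite way in loading, by 0.71 (SE 0.20, adjusted p = 0.00249), from ratios of 0.885 and 0.929 to 1.71 and 1.29. After the length and GC correction Kif3b was not called (0.36, adjusted p = 0.124), while Kif3a was at −1.56. The difference between these partners was not tested.

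**Figure D2:**
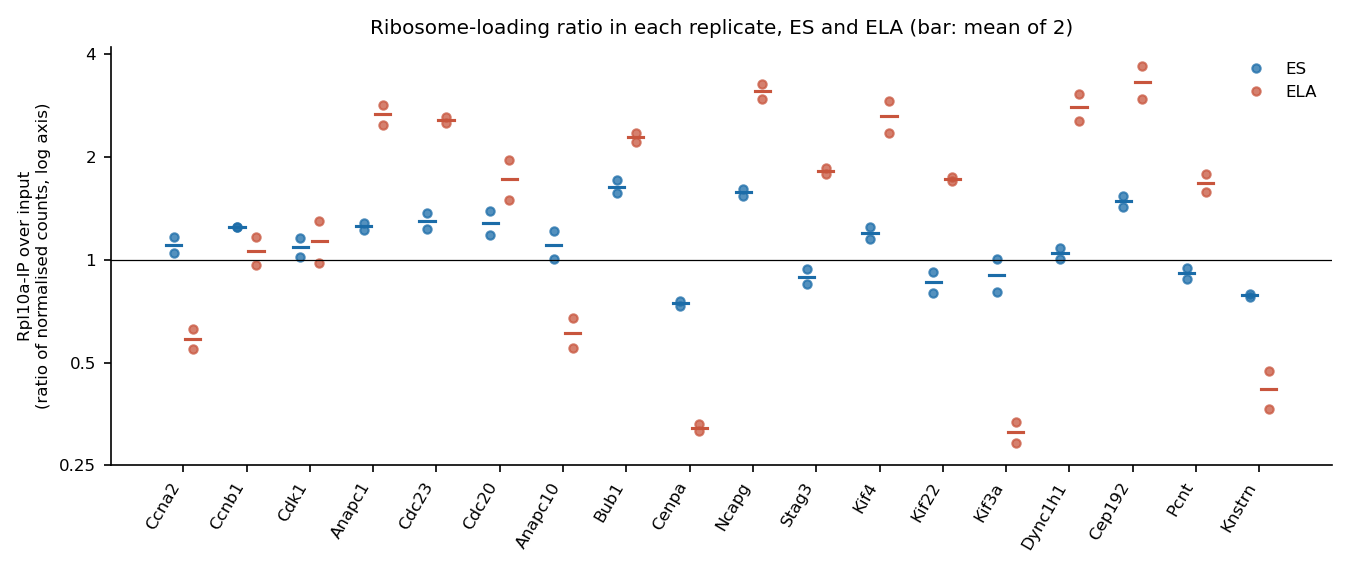
Rpl10a-IP over input ratio of normalised counts (log axis) in each of the 2 replicates of ES and ELA for 18 members; points are replicates and bars their mean. The stages do not overlap for Ccna2, Anapc1, Cenpa, Ncapg, Kif4, Kif3a, Dync1h1 and Cep192, and overlap for Cdk1, whose ratios were 1.02 and 1.16 in ES and 1.3 and 0.976 in ELA.

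Of the dynein subunits, which carry cargo and spindle material toward microtubule minus ends, the heavy chain had the largest fitted gain of loading among the members. Corrected for length and GC it was 0.57 (with a ribosome-bound change of 0.30 in place of 1.59 and a called fall of total RNA of −0.27), below Ckap2 (1.42), Ncapg (1.34) and others. Dync1h1 had 3677 and 3451 normalised counts in ES input, 4703 and 3339 in ELA input, 3976 and 3482 in ES Rpl10a-IP and 11973 and 10258 in ELA Rpl10a-IP. The inputs overlapped and the ELA ribosome-bound levels were more than 2-fold above any other group, a loading change of log2 1.42 (SE 0.17, adjusted p = 2.03e-08). The light intermediate chain gene Dync1li1 rose by 0.42 (SE 0.16, adjusted p = 0.0224), and Dync1li2, at 0.31 (SE 0.17), was not called.

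Centrosome and spindle genes moved in both directions. Of the pericentriolar scaffold genes, Cep192 and Pcnt rose and Cdk5rap2 was not called (0.20, adjusted p = 0.347, and a called fall of −0.56 with the length and GC correction). Cep192 had ratios of 1.54 and 1.43 in ES and 2.96 and 3.7 in ELA, a loading change of log2 1.16 (SE 0.15, adjusted p = 9.88e-08), and Pcnt, the pericentrin scaffold, had 0.881 and 0.945 against 1.58 and 1.78, a change of 0.88 (SE 0.16) that was 0.34 with the correction. All 3 members of the gamma-tubulin ring, which nucleates microtubules, rose, with Tubgcp2 at 0.90 (SE 0.18), Tubgcp5 at 0.90 (SE 0.19) and Tubgcp4 at 0.60 (SE 0.18). Tubgcp4 shares 26.1% of its exonic bases with Trp53bp1 and Zscan29 on the opposite strand, and Tubgcp2 rests on 8 and 20 reads in ELA input. The microtubule-binding genes Ckap2, at 1.02 (SE 0.17), Spag5, at 0.95 (SE 0.17), and Ckap5, at 0.64 (SE 0.14, or 0.42 with the correction), rose as well.

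The 4 centrosome and spindle genes that fell in loading were Knstrn at −0.92 (SE 0.17), Cep57 at −0.86 (SE 0.17), Cep19 at −0.68 (SE 0.24) and Haus7, of the augmin complex that branches microtubules, at −0.54 (SE 0.20). That of Cep57 was −0.44 with the length and GC correction. The falls of Cep19 (−0.34) and Haus7 (−0.20) were not called with it. Knstrn had 650 and 626 normalised counts in ES input and 1169 and 1039 in ELA input, but 506 and 499 in ES Rpl10a-IP and 426 and 490 in ELA Rpl10a-IP. Its total RNA was higher in ELA, and its ribosome-bound change was not called, or was a called fall of −0.30 with the correction. Tpx2, a spindle assembly factor, at −0.22 (SE 0.15), and Haus6, another augmin subunit, at 0.35 (SE 0.17), were not called, though Tpx2 was a called fall of −0.35 with the correction. Cep55, which acts in the final cut of cytokinesis, had overlapping ratios (0.832 and 0.869 in ES, 0.817 and 0.863 in ELA) and fell in total RNA from 1590 and 1512 to 381 and 392, a log2 change of −2.00 (SE 0.11), the largest fall among members. Cep97, which restrains cilium growth, rose in total RNA by 1.07 (SE 0.13), or 0.67 with the correction.

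Of the CDKs that act in transcription, Cdk12, at 0.80 (SE 0.15, adjusted p = 4.33e-05), and Cdk13, at 0.68 (SE 0.16), both kinases of the elongating RNA polymerase, rose in loading. Corrected for length and GC, Cdk12 was at 0.46 and Cdk13 was not called (0.25, adjusted p = 0.146). Cdk8 and Cdk19, kinases of the Mediator complex, were not called, at −0.09 (SE 0.16) and 0.23 (SE 0.19), and Cdk8 has a genomic copy of 99.9% of its transcript at 94.2% identity.

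Total RNA of the members changed in both directions. It was called for 50 of 81, 29 higher and 21 lower in ELA, where 70.2% of all genes were called (34.5% higher and 35.8% lower), with a median log2 change of 0.08 for members and −0.02 for all genes. The length and GC correction gave 25 higher and 28 lower, with medians of −0.037 for members and −0.029 for all genes. With it 2119 of 3120 genes were called, 993 of them higher. Ribosome-bound RNA was called for 72 of 81, 52 higher and 20 lower, where 83.4% of all genes were called (41.6% higher and 41.9% lower), and the medians were 0.43 and −0.01. Kinesins were higher on ribosomes in 13 of 16 with 0 lower, and the cyclin and CDK class lower in 6 of 6. After correction for length and GC these counts were 12 higher and 3 lower (Kif2a, Kif13b and Kif16b) and 5 of 6 lower, and the median over members was 0.23. The correction left 62 of 80 members called, 43 higher and 19 lower, and 2383 of 3120 genes, 1194 of them higher. These comparisons share the input and Rpl10a-IP libraries with the loading values.

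Set side by side, 24 members were called higher in both fractions and 11 lower in both, which is 29.6% and 13.6% of the members, against 24.9% and 26.1% of all genes. In 6 members (7.41%, against 4.59% of all genes) total RNA fell while ribosome-bound RNA rose: Cdc23, Cep192, Kif20a, Kif22, Spag5 and Tubgcp2. Among them Cep192 had inputs of 2294 and 2355 in ES against 1658 and 1378 in ELA, and ribosome-bound counts of 3526 and 3364 against 4902 and 5102. In Cenpa and Cep57 (2.47%, against 4.72% of all genes) total RNA rose and ribosome-bound RNA fell. With the length and GC correction Cdc23, Spag5 and Tubgcp2 kept both calls. The sign of the ribosome-bound change turned for Cep192, to −0.14, and for Cenpa, to 0.20, that of total RNA for Kif22, to 0.027, and neither the total RNA fall of Kif20a (−0.12) nor the ribosome-bound fall of Cep57 (−0.12) was called. A further 22 members were higher and 7 lower on ribosomes with no called change in total RNA, or 27.2% and 8.64%, against 12.1% and 11% of all genes, among the first Kif4 and among the second Ccnd1.

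**Figure D3:**
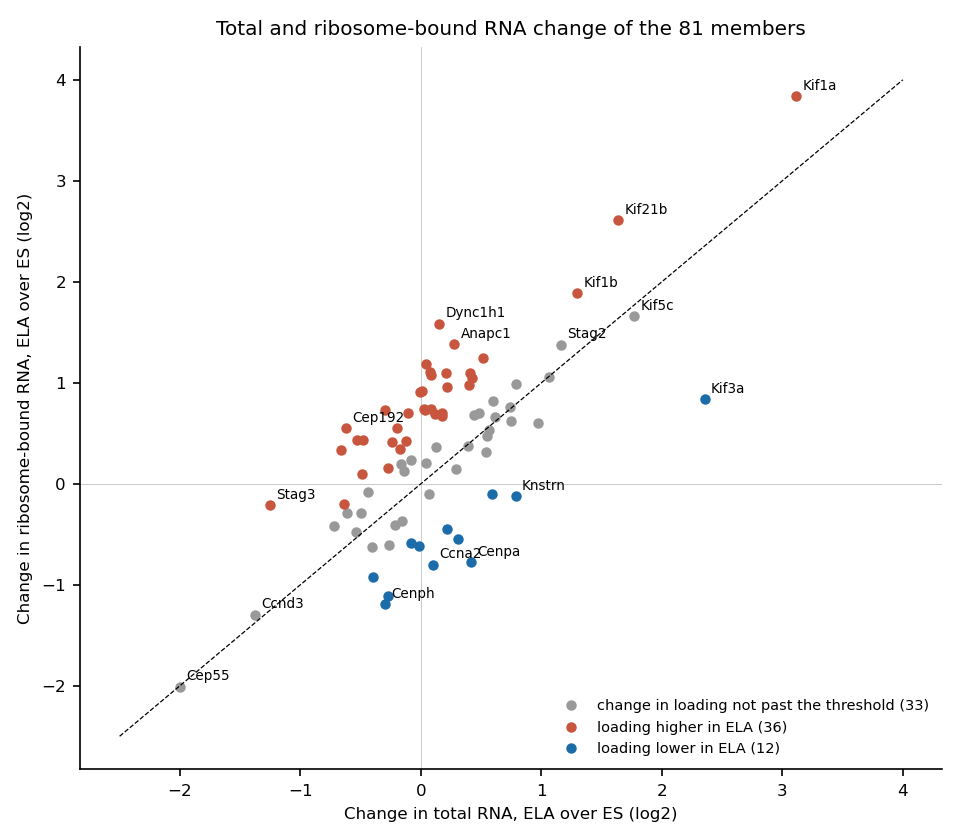
Change in total RNA (horizontal axis) against change in ribosome-bound RNA (vertical axis), ELA over ES in log2, for the 81 members; the dashed line marks equal change and colors mark the call for the change in loading. The 36 members with higher loading lie above the line and the 12 with lower loading below it, with Kif3a farthest below.

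Transcript length moved with the changes, in the members as in all genes. The longest coding transcript had a median of 4056 bases in the 80 members matched to GENCODE vM1 and of 3693 bases in 3120 genes. Over these 80 members the Pearson r of log2 length with the change in loading was 0.41 (Spearman rho 0.34), and over the 3120 genes 0.48 (0.44), both as descriptions, since genes of the same libraries are not independent replicates. In the length class with the longest transcripts (5382 bases or more), 15 of 27 members rose in loading and 0 fell, while 51% of all such genes rose and 9.87% fell. In the class with the shortest (2482 bases or fewer), 2 of 10 members rose and 5 fell, with 10.4% and 47.9% over all genes. Dync1h1, at 14342 bases, and Cenpa, at 1354, lie near opposite ends. Kif3a, at 5291 bases, and Kif22, with a short transcript, did not follow that order.

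The other classes hold equal numbers of genes. In the shorter middle class (2483 to 3692 bases), 10 of 25 members rose and 4 fell, against 20.5% and 32.6% over all genes. In the longer middle class (3694 to 5381 bases), 9 of 18 rose and 3 fell, against 32.6% and 20.6%. When each library was corrected for length and GC content by a loess curve, 43 members were called, 31 higher and 12 lower, with a median change of 0.23. Of all 3120 genes 1562 were then called, 801 of them higher, with a median of 0.006. Of the 48 members called before, 36 were also called with this correction, all in the same direction. The 12 lost were 7 rises and 5 falls, among them Cenph, at −0.20 with the correction, and Anapc10, at −0.34. Ncapg (1.34), Kif4 (0.89), Cep192 (0.77), Cenpa (−0.71) and Kif3a (−1.56) were called with it, and Dync1h1 went from 1.42 to 0.57.

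**Figure D4:**
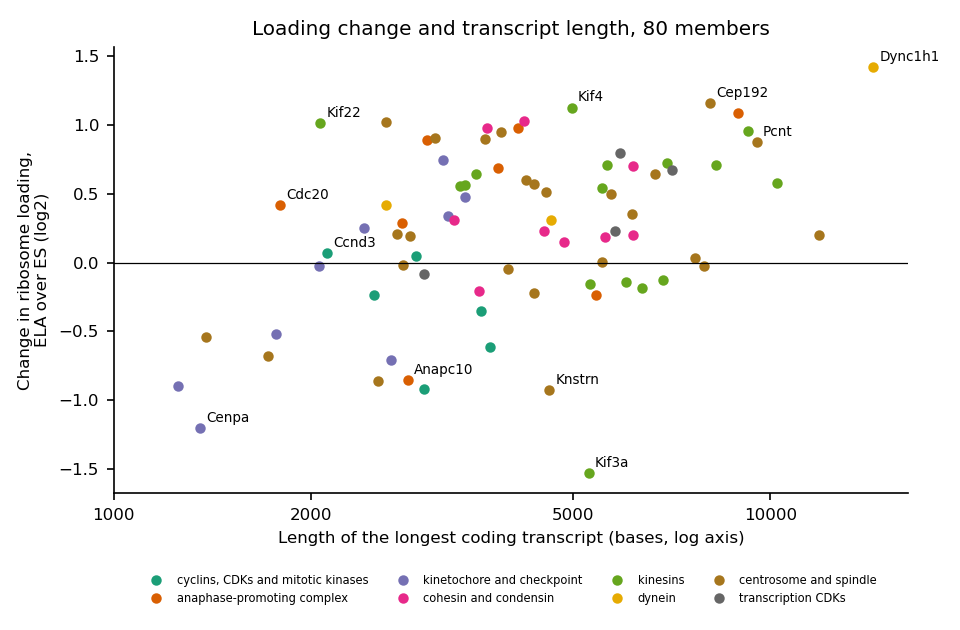
Change in ribosome loading (log2, vertical axis) against the length of the longest coding transcript (bases, log axis) for 80 members, colored by role. Longer transcripts lie higher on average, with Dync1h1 at the top right and Cenpa at the lower left, while Kif3a and Knstrn lie low at middle lengths.

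GC content moved with loading in ES. Over 80 members the Pearson r between GC content and ES loading was −0.53, and over 3120 genes −0.40, while it was −0.05 and −0.04 for loading in ELA. The part of length and GC content in the loading of any one member was not tested beyond this correction.

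Genes of the same pathways whose symbols the rule does not cover were counted separately, without the length and GC correction. Of 122 such genes listed, 53 were in the table. Loading rose in 19 and fell in 10, with a median log2 change of 0.18. These are 35.8% and 18.9% of the 53, where 28.4% of all genes rose and 27.7% fell. Cohesin regulators rose in 3 of 7 and fell in 2: Espl1, the separase that cuts cohesin, rose by 1.25 (SE 0.17) and Pds5b by 0.63 (SE 0.15), while Ctcf, which positions cohesin on DNA, fell by 1.01 on the log2 scale. Among 9 kinetochore and passenger genes 4 rose, with Casc5 highest at 0.98, and 3 fell, with Mis12 lowest at −0.86. Among 19 centrosome and microtubule genes 7 rose, with Ninl highest at 1.15, and 2 fell (Mapre1 at −0.57 and Ndel1 at −0.50). Among 13 genes of cell cycle control 3 rose and 2 fell, the falls being Cks2, a CDK subunit, at −1.11 and Arpp19, a phosphatase inhibitor of mitotic entry, at −1.06. Of 5 cytokinesis and mitotic chromosome genes, 2 rose (Top2a at 0.99 and Rock2 at 0.62) and Prc1 fell, at −0.35. In total RNA 19 of the 53 rose and 21 fell, where 34.5% of all genes rose and 35.8% fell. In ribosome-bound RNA 22 rose and 21 fell, where 41.6% and 41.9% of all genes did.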

How the data were processed

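RNA-seq of input and Rpl10a-IP samples of ES and ELA, 2 libraries for each of these 4 groups, was used, grouped by the sample labels. Per the methods and the submitters' processing notes, the authors mapped reads to the mm10 transcriptome with TopHat2, counted them per gene with HTSeq, divided the counts by DESeq2 size factors and filtered the genes. The deposited signal values are these normalised counts, set within each fraction, and no value of the larger mean input count was below 50.02. Every value was a whole multiple of 1 read of its library (largest deviation 3.19e-07), so reads were read back. Columns of the authors' means, ratios and fold changes were not used. Control immunoprecipitations were not analysed here.

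Reads were scaled by trimmed mean of M-values factors over the libraries of each fit and tested as log2(normalised count + 1) with limma 3.58.1 in R 4.3.3 (lmFit, eBayes with a trended prior, 1 coefficient per group), with Benjamini-Hochberg adjustment over 3160 genes and a threshold of 0.05. Loading in ES and the ribosome-bound change used 7 libraries, without ELA input replicate 1, and the other comparisons 8. Normalised counts and ratios printed per library use factors over all 8. The fit was also run on simulated counts, and the outcome is not given here. Transcripts were aligned to NCBIM37 with minimap2 2.31 for copies covering at least 20% of the transcript at 90% identity, found for 8 of 80 members, and 10 members shared over 10% of exonic bases with a gene on the other strand. The members and lists were chosen with earlier results of these data known. Genes named are the 3 largest rises and falls of each comparison, the extremes of each role in loading change and a list of 49 core regulators, of which 23 were in the table; others were named after their values were seen. One gene that this rule selects is not reported here by name. Alternatives were the scaling, the pseudocount (0.1, 10), a mean CPM of 50, 7 or 8 libraries, leaving out each library, a replicate block, a length and GC correction (loess, span 0.5), and, added after seeing the data, the ELA input libraries summed.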

Additional observations from a re-analysis of the deposited data

Results flagged for a closer look

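Loading differed between ES and ELA, by the interaction term of the limma fit, for 48 of the 81 members, where 56.2% of all genes were called. Of the genes named by rule, those with higher loading in ELA were Dync1h1 (log2 change 1.42), Cep192 (1.16), Kif4 (1.13), Anapc1 (1.09), Stag3 (1.03), Ncapg (0.98), Pcnt (0.88), Cdk12 (0.80), Cenpc1 (0.74), Stag1 (0.70), Ckap5 (0.64), Kif23 (0.57), Bub1 (0.48) and Cdc20 (0.42). Those with lower loading were Kif3a (−1.53), Cenpa (−1.21), Knstrn (−0.92), Ccna2 (−0.92), Anapc10 (−0.85) and Ccnd1 (−0.61). The limits given above apply. With the length and GC correction Dync1h1 was at 0.57 and Anapc10 was not called. Cdc20 lost its call under several alternatives, and Stag3 rests on 6 and 14 reads in ELA input. Groups of 2 libraries are too small for a test of single outlying samples.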

How the results depend on the processing

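The number of members called stayed within 1.5 times its value, in each of the 5 comparisons, under every alternative run. Leaving out 1 library at a time gave 25 to 34 called members for loading in ES, 58 to 65 for loading in ELA, 41 to 53 for total RNA, 65 to 71 for ribosome-bound RNA and 40 to 53 for the change in loading. Without ELA input replicate 1 the change in loading was called for 53 members, 38 higher and 15 lower, and with both ELA input libraries summed for 51. The deposited size factors were set within each fraction and moved the median log2 ratio of all genes to 4.05 in ES and in ELA, so they gave no usable value for loading within a stage. For total and ribosome-bound RNA they moved it to −0.12 and −0.14, and total reads as scaling moved it to −0.12 for loading in ELA. Total RNA was called in 2119 of 3120 genes with the length and GC correction, 993 of them higher. In the members this correction gave 25 higher and 28 lower, in place of 29 and 21. Among all called members it turned the sign of 5 in total RNA (1 past the threshold, Kif2a, at −0.27), 12 in ribosome-bound RNA (5 past it: Cdk5rap2 −0.36, Cep164 −0.46, Kif13b −0.26, Cep19 0.30 and Haus6), Cdk5rap2 for loading in ELA (−0.50) and Kif1b for the change in loading (−0.071, not called). Of the genes the naming rule selects, it reversed Cdc20 in total RNA (0.069, with or without the replicate block) and, in ribosome-bound RNA, Cep192 (−0.14), Cenpa (0.20), Cdc27 (−0.10), Smc3 (−0.028) and Haus6 (−0.32), the same with the block; the cause was not tested. Of 1733 values of single genes under alternatives, 1639 kept direction and call, 82 kept direction and missed the threshold and 12 reversed.

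Replicate numbers were shared by all groups but the labels name no shared batch. Per the methods, input was set aside from each clarified lysate before the pull-down. Same-numbered input and Rpl10a-IP libraries of a stage may thus share a lysate, a pairing that the main fits did not use. Deviations of same-numbered libraries correlated over genes at 0.17 (ES input with ES Rpl10a-IP), 0.50 (ELA), 0.15 (inputs) and −0.02 (Rpl10a-IP). With the replicate number as a block, 36, 63, 51, 72 and 50 members were called in the 5 comparisons in the order above. Count models (edgeR, DESeq2) were planned on the reads read back from the deposited values but were not run. The shallow ELA input, with 8 members under 10 reads in replicate 1, limits every loading value in ELA.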
